A study of Mus musculus with 5 samples.

Results

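The end point of a chemical conversion of mouse embryonic fibroblasts (MEFs), the library labelled day 14, was compared with the library of the starting cells, labelled day 0. These are 2 of the 5 libraries of a time course that also holds days 2, 5 and 10. A gene was a member of the comparison if either library held 100 or more expected counts of it, which kept 7378 of the 27729 genes in the tables, and these took 95.7% of all counts on day 0 and 93.9% on day 14. A gene was called gained or lost if its normalized count plus 1 was over 2-fold higher or lower on day 14.

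The day 0 library came from MEFs of ICR mice growing in serum medium. Per the study's methods, the cells were taken from 13.5-day embryos without head and internal organs, thawed, passaged, and briefly trypsinized to remove weakly attached cells with neurogenic potential. The day 14 library came from the same kind of cells after the serum medium was replaced by a serum-free medium, called 6C in the labels and 5C in the paper, that per the paper holds DMEM/F12 with N2 supplement, vitamin C, 2-mercaptoethanol and the factors LIF and bFGF. Labels and methods state different cell densities, and the harvest text of the labels ends on day 15 where the sample itself is labelled day 14. No cells were sorted, so each library is a mixture. Fewer cells of a type and less RNA per cell cannot be told apart in it.

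Background helps to read the genes. MEFs in serum on plastic take on a contractile, myofibroblast-like state, with smooth muscle actin stress fibres, which the cofactors of the factors SRF and TEAD maintain. The neural crest is the embryonic population that gives rise to Schwann cells, the glia of peripheral nerves, and Schwann cell precursors carry Sox10, Ngfr and Erbb3. Neurons are recognised instead by cytoskeletal and synaptic genes such as Tubb3, Dcx, Rbfox3, Syn1 and Snap25.

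The day 14 library held more of the neural crest and Schwann cell genes, of the matrix genes of resting connective tissue, and of genes of fat cells, macrophages, complement and antigen presentation. It held less of the contractile genes, of markers of dividing cells and of some fibroblast regulators. Of 21 pan-neuronal genes 8 were under 3 counts in both libraries. At any depth 7 of the 21 were over 2-fold higher on day 14 and 5 over 2-fold lower. The total of expected counts was 3890334 for the starting cells and 3362149 for the end point, within a range of 2253748 to 3890334 over the 5 libraries. There is 1 library per day, so the comparison has no replicate check and no test, and every interval given here covers counting error only.

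Of the 7378 genes, 1450 were gained and 1651 were lost, so that 19.7% of all genes compared were gained and 22.4% lost, and the median log2 change over all of them was -0.06. The shares of 19.7% and 22.4% are the background for each count of list members below. Over 8-fold higher were 414 genes (5.61%), and over 8-fold lower were 111 (1.5%). The exact 95% interval of the ratio lay above 1 for all 1450 gained genes and below 1 for all 1651 lost genes, and it lay wholly past 2-fold for 1054 and 1201 of them. On the TPM values that the authors deposited beside the counts, which divide by gene length, 3028 genes were gained and 553 lost, 84.6% of the changed genes against 46.8% on the counts. On that scale the median of all genes moved to 0.75, and TPM results below are to be read against it. The division is made in both libraries, so it is no adjustment of the change for length. Transcript length moved with the change. In the shortest of 5 equal groups of genes the median log2 change was -1.10 and 54.1% were lost, and in the longest it was 0.52 and 32.6% were gained. The part of this length difference in single results was not tested, and length-adjusted values are given beside some of the groups, of short and of long genes.

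**Figure D1:**
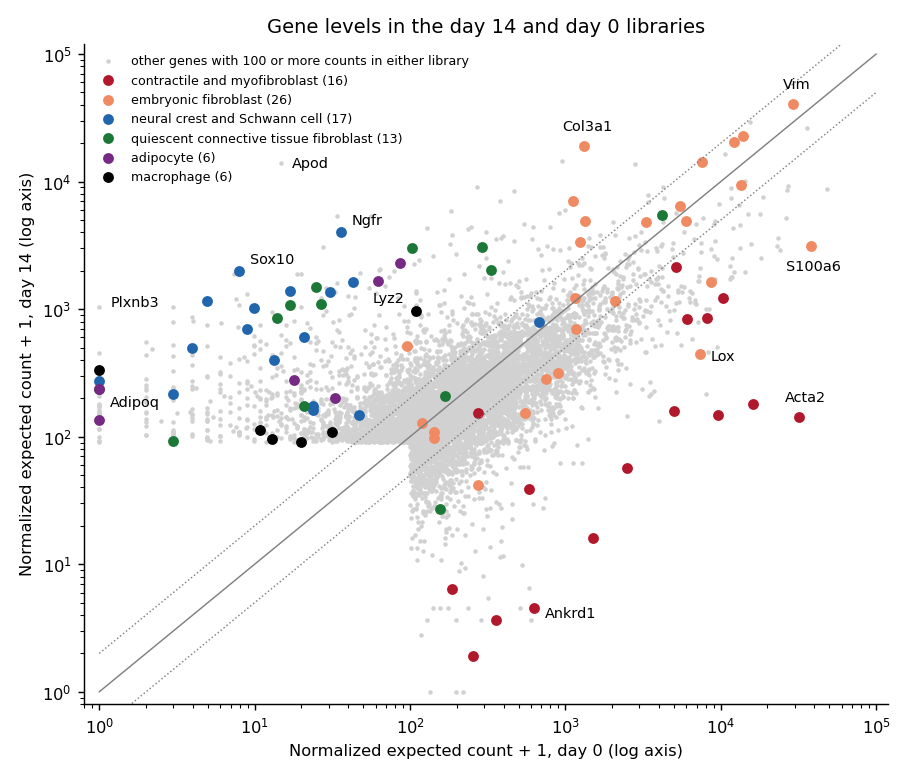
Normalized expected counts plus 1 of the 7378 genes in the day 0 library (x axis) and the day 14 library (y axis), both log axes. The solid line marks equal levels and the dotted lines 2-fold differences. Of the 16 contractile genes 15 lie below the lines, among them Ankrd1 with 3.58 on day 14, and of the 17 neural crest and Schwann cell genes 16 lie above them, up to Ngfr with 4039. Genes at the left edge had no count on day 0.

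**Figure D2:**
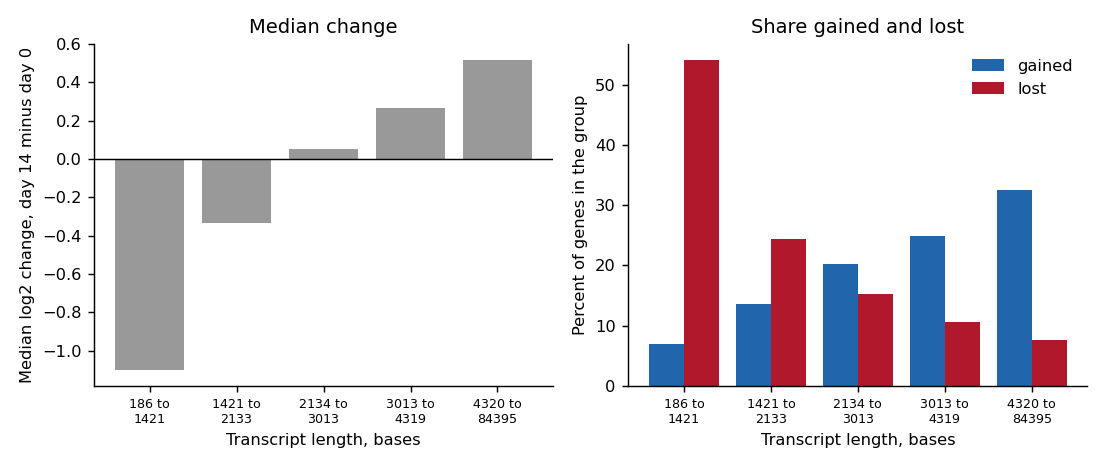
The median log2 change (left) and the percent of genes gained and lost (right) in 5 groups of about 1476 genes by transcript length in bases. The median runs from -1.10 in the shortest group to 0.52 in the longest, and the share lost from 54.1% to 7.52%.

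Genes of the contractile apparatus were lost. Acta2, smooth muscle actin (chr19:34241090-34255590 in GRCm38, minus strand), had a normalized count of 32045, 3325, 666, 253 and 142 in the libraries of days 0, 2, 5, 10 and 14. It was lower in each later library, and day 14 was 226-fold lower than day 0 (95% interval 193 to 265). Tagln, the actin-binding protein transgelin, had 16174 on day 0 and 181 on day 14, 89.6-fold lower (78.0 to 103), and shares exon positions with Gm48529 and Pcsk7 on the other strand. The reads carry no strand, so overlapping genes cannot be told apart where they overlap. Tpm2, the beta chain of tropomyosin, had 9641 and 147, 65.8-fold lower (56.4 to 77.2). Of the 16 genes in a list of contractile and myofibroblast markers, all had 100 or more counts on day 0. Of these 15 were lost, where 22.4% of all genes were, and 13 were over 8-fold lower, where 1.5% of all genes were. The median log2 change of the list was -5.21. After adjustment for gene length it was -5.05. The summed level of the list was 16.6-fold lower (16.2 to 17.0). The exception was Smtn, smoothelin, with 273 on day 0 and 153 on day 14.

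Several of these genes ended near the limit of counting. Ankrd1, a muscle ankyrin repeat protein, went from 631 on day 0 to 3.58 on day 14, 176-fold lower (68.5 to 649), and Cnn1, the smooth muscle calponin, from 357 to 2.68, 133-fold lower (45.2 to 649). Lmod1, a smooth muscle leiomodin, held a single read on day 14 against 252 normalized counts on day 0, so that its ratio is wide, 282-fold lower (50.2 to 11194). The other muscle actins followed Acta2, with Actg2 at 1507 and 15.2, 99.2-fold lower (61.7 to 171), and Acta1 at 579 and 5.45, 106-fold lower (49.3 to 295). These actins are near-identical in coding sequence, and their reads could have been divided among them. The cytoskeletal actins Actb and Actg1 were lower by less, 2.95-fold (2.88 to 3.02) and 3.10-fold (3.03 to 3.17). Of the 5 actins with enough counts all were lost on counts and 3 on TPM values.

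Secreted members of the contractile list were Ccn2, Thbs1 and Ccn1. Ccn2, a matrix-associated growth factor modulator, went from 5009 on day 0 to 157 on day 14, 31.9-fold lower (27.4 to 37.2), and Thbs1, thrombospondin 1, from 8138 to 856, 9.51-fold lower (8.89 to 10.2). Ccn1 was lower by less and had turned upward, with 5183, 1759.5, 733, 791 and 2142 in order of day, and was 2.42-fold lower at the end (2.31 to 2.54). From the fibroblast list, Lox, the enzyme that crosslinks collagen, had 7358 on day 0 and 447 on day 14, 16.5-fold lower (15.0 to 18.1).

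Promoters of the contractile list are shown because some of its members are textbook targets of TEAD factors. The motifs searched were chosen after the values were seen. The motif GGAATG, searched on both strands, stood in the 250 bases before the start of 7 of the 11 list members that have an entry in the RefSeq promoter table (GRCm38.p6), and in 12.6% of all 32851 promoters of the same length. It stood equally in 6 of the 11 promoters found for the myelin list, of which 9 of 10 members with enough counts were gained. Among all genes gained and lost it stood in 13.7% and 13.1%. The stretches around the motif, which is in capitals (on the other strand it reads CATTCC), are given below, at chr19:36119937-36120079 (minus strand) for Ankrd1, chr3:145650058-145650113 (minus strand) for Ccn1 and chr1:135324658-135324713 (plus strand) for Lmod1, all lost, and at chr11:100574849-100574904 (plus strand) for the gained Cnp.
Ankrd1: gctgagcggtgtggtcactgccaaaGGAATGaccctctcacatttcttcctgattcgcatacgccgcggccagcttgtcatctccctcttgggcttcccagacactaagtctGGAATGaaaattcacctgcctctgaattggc
Ccn1: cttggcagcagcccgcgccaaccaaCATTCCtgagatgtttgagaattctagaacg
Lmod1: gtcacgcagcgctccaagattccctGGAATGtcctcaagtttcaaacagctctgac
Cnp: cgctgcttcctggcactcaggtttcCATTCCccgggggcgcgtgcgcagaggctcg
The CArG box that SRF binds was found by its strict form in 1 of the same 11 promoters, that of Myl9, and in 1.47% of all promoters. Myl9, a regulatory light chain of myosin, went from 2484 to 56.3, 44.1-fold lower (34.4 to 57.6).

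The fibroblast markers were divided, and their balance depended on the scale. All 26 genes of an embryonic fibroblast list had 100 or more counts. Of these 5 were gained, 7 were lost and 14 were neither, with a median log2 change of -0.09. Over all genes compared 19.7% were gained and 22.4% lost, with a median of -0.06, so the list as a whole lay near all genes. On TPM values 11 were gained and 4 lost, with a median of 0.77, where that of all genes was 0.75. The summed level was 1.07-fold higher (1.06 to 1.08). Vim, the intermediate filament protein of mesenchymal cells, had 29392 on day 0 and 40816 on day 14, 1.39-fold higher (1.37 to 1.41). The fibrillar collagen genes Col1a1 and Col1a2 were 1.63-fold (1.59 to 1.66) and 1.87-fold higher (1.82 to 1.93), under the 2-fold limit.

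Single members of that list moved in opposite directions. Col3a1, the type III collagen of loose connective tissue, had 1316, 3756, 11826, 17422 and 19193 in order of day, higher in each later library and 14.6-fold higher at the end (13.8 to 15.4). Postn, periostin, was 6.32-fold higher (5.94 to 6.74), and Pdgfra, the receptor of platelet-derived growth factor A, had 94 and 513, 5.46-fold higher (4.39 to 6.85). The mesenchymal homeobox genes Prrx1 and Prrx2 were 2.83-fold (2.49 to 3.20) and 3.59-fold lower (3.02 to 4.28), and Twist2, a basic helix-loop-helix regulator of mesenchyme, went from 272 to 40.8, 6.66-fold lower (4.83 to 9.25). Its relative Twist1 and the EMT regulators Snai1 and Snai2 stayed under 2-fold, with 143 and 107, 142 and 97.4, and 118 and 126 normalized counts on days 0 and 14.

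A second fibroblast list, of resting connective tissue, was mostly gained. Of its 16 genes 13 had enough counts, and of these 10 were gained and 1 was lost, with a median log2 change of 4.86. In lists like this one a gene that has 100 counts only on day 14 had to differ from day 0, so the counts and medians over the genes that passed describe the lists and are no support for a direction. Dcn, the small leucine-rich proteoglycan decorin, had 102, 621, 1741, 2191 and 2989 in order of day, 29.3-fold higher (24.1 to 36.0). Lum, the related lumican, was 62.6-fold higher (41.9 to 98.0), and Dpt, dermatopontin, 66.4-fold (38.7 to 125). Clec3b, tetranectin, had no count on days 0 and 2, then 9.63, 45.0 and 237, and was at least 79.8-fold higher on day 14 against a floor of 3 counts in the day 0 library. Cd34, a surface sialomucin of resting fibroblasts and other progenitors, was highest on day 2 with 1073 and had come down to 174 on day 14, still 8.80-fold above day 0 (5.55 to 14.7). The lost gene was Igfbp6, a binding protein of insulin-like growth factors, with 155 and 25.9, 5.99-fold lower (4.01 to 9.24).

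The neural crest and Schwann cell list was mostly higher on day 14. At any depth 22 of its 25 genes were over 2-fold higher and none lower. Without a filter 4179 of 17274 genes were gained and 3354 lost. Of its 25 genes 17 had 100 or more counts, of which 16 were gained (19.7% of all genes were) and none lost, and 13 were over 8-fold higher (5.61% of all genes were). The median log2 change was 6.19, and it was the same with the gene without a day 0 count set at its lower bound. Genes that passed by their day 14 count alone were picked for being high there. The counts and the median over these 17 genes therefore describe the list and are no support for a direction. The summed level over all 25 genes was 16.3-fold higher (15.3 to 17.3). Of the 8 list genes under 100 counts, none was over 2-fold lower and 6 were over 2-fold higher.

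The transcription factors of the lineage were among them. Sox10, the defining factor of neural crest glia (chr15:79154908-79165240, minus strand), had 6.93, 21.7, 280.3, 1055 and 1993 in order of day, 288-fold higher at the end (139 to 717). Foxd3, a crest specifier, had 7.92 and 703, 88.7-fold higher (44.8 to 206), and Tfap2a, a factor of early crest, 22.8 and 172, 7.52-fold (4.88 to 12.2). Sox2, which neural progenitors and Schwann cell precursors share, had 2.97, 7.24, 43.8, 196 and 497 in the same order. It rested on 3 reads on day 0, which gives a ratio of 167 (57.0 to 814). Egr2, the regulator that Schwann cells switch on to myelinate, reached only 162 from 22.8, 7.11-fold higher (4.59 to 11.5).

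Receptors and adhesion molecules of the lineage were also gained. Ngfr, the p75 neurotrophin receptor, had 34.8, 34.6, 323, 2480.0 and 4039 in order of day, 116-fold higher (83.7 to 168). Erbb3, the neuregulin receptor on which Schwann cell precursors depend, had 8.91 and 1015, 114-fold higher (59.8 to 249.7). Cdh19, a cadherin of Schwann cell precursors, had 3.96 and 1157, 292-fold higher (114 to 1075), and L1cam, a cell adhesion molecule of axons and unmyelinating Schwann cells, 15.8 and 1377, 87.0-fold (53.4 to 153). Each of these was already above day 0 on day 5.

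Myelin genes were gained too, and most were higher on day 10 than on day 14. Of a list of 15 myelin lipid and membrane genes 10 had 100 or more counts. Of these 9 were gained (19.7% of all genes were), and 8 were highest on day 10. Mbp, which central and peripheral myelin share, had 45.7, 21.9, 42.1, 368 and 147 in order of day. Cnp, a phosphodiesterase of myelin-forming glia, was still higher on day 14 than on day 10, with 29.7, 150.2, 271, 1161 and 1367. Pmp22, a myelin protein that fibroblasts also make, was at 676 and 786 and counted as neither. Mag, Gjb1 and Cldn19, other members of the list, had 24, 0 and 7 expected counts on day 14.

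**Figure D3:**
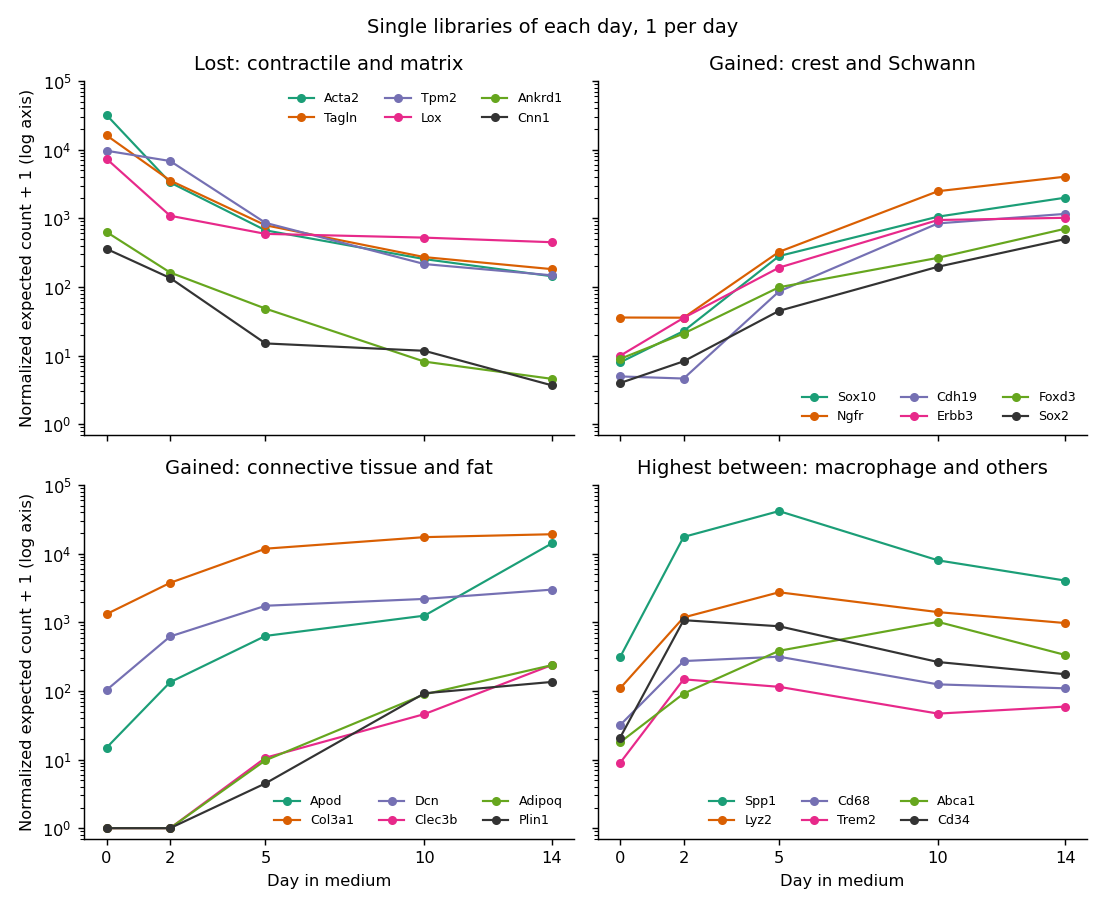
Normalized expected counts plus 1 (log axis) of 24 genes against the day, 1 library per day, in 4 panels. The contractile genes and Lox are lower in each later library, the crest and Schwann genes lie above day 0 from day 5 on, and Spp1, Lyz2, Cd68, Trem2 and Cd34 are highest on days 2 or 5.

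Pan-neuronal markers were mixed. Of 21 pan-neuronal genes 6 had enough counts, 3 of these were gained and 2 were lost (1 on TPM values). At any depth 7 of the 21 were over 2-fold higher and 5 lower, and 8 were under 3 counts in both libraries. The gained ones were Gap43, a growth cone protein that Schwann cell precursors also make, with 113 and 2411, 21.4-fold higher (17.7 to 26.0), Tubb3, the neuronal beta tubulin, with 22.1 and 161, 7.26-fold (4.73 to 12.1), and the RNA-binding Celf4, 4.35-fold (3.03 to 6.51). The lost ones were Map2, the dendritic microtubule protein, with 196 and 45.6, 4.30-fold lower (3.15 to 5.97), and Stmn2, a tubulin-binding protein of growing axons, with 448 and 163, 2.75-fold lower (2.32 to 3.29). Uchl1, a ubiquitin hydrolase abundant in neurons, was at 371, 488, 110.3, 51.4 and 359 in order of day, so that its ends lay 1.03-fold apart with an interval across 1 (0.895 to 1.19).

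Several genes that define differentiated neurons had few or no counts. Rbfox3, the gene of the NeuN antigen, and Ina, alpha-internexin, had no count in any of the 5 libraries, and Dcx, doublecortin, had 1 count on day 0 and none later. Syn1 had 14 counts on day 0 and 6 on day 14, Snap25 none and 7, and Syp none and 36. A count of 0 allows up to 0.892 CPM in the day 14 library, so low levels or a small number of such cells were not detectable at this depth. None of 13 regulators of neuronal fate had 100 counts, the highest being 7, and none of 10 transmitter genes did, the highest being Gad2 with 13 on day 14.

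Some members of the glial and stem cell lists outside the crest were gained and others were barely counted. Of the 10 neural stem cell genes 2 had enough counts and both, Nes and Sox2, were gained, and at any depth 5 were over 2-fold higher and none lower. Nes, the intermediate filament nestin of progenitors, had 670.1, 664, 563, 787 and 2949 in order of day, 4.40-fold higher (4.05 to 4.79), while Pax6, Sox1 and Hes5, which define central neural stem cells, had 1, 0 and 1 counts on day 14. Of the 12 astrocyte genes 4 had enough counts, 3 of these were gained and none lost, and at any depth 6 were over 2-fold higher and none lower. Gfap, an intermediate filament of astrocytes and of non-myelinating Schwann cells, had 0, 12.7, 45.5, 219.9 and 134 in order of day, at least 45.2-fold higher. The other gained ones were Aldh1l1, a folate enzyme, with 3.96 and 166, 42.0-fold higher (16.1 to 156), and Glul, glutamine synthetase, with 80.2 and 347, 4.33-fold (3.40 to 5.57). Aqp4 had 18 counts, Gjb6 none and Slc1a2 4 on day 14. Of the 12 oligodendrocyte genes 3 had enough counts, 2 were gained and 1 lost, and at any depth 5 were over 2-fold higher and 1 lower. Olig1, an oligodendrocyte lineage factor, had 0 and 209, at least 70.5-fold higher. Cldn11, a claudin of myelin, had a single read on day 0 and a normalized count of 436 on day 14, a ratio of 441 (78.7 to 17445). Olig2 had 12 counts on day 14, Nkx2-2 and Mog 0, and Cspg4, of oligodendrocyte precursors and pericytes, was 9.69-fold lower (7.86 to 12.1). No gene of the melanocyte list reached 100 counts, the most being 29 of Mitf. Of the perineurial and endoneurial list, of nerve sheath cells, 4 of 5 genes with enough counts were gained. The lost 1 was Slc2a1, the glucose importer. Of the pericyte list 1 of 3 was gained (2 on TPM values) and 1 lost. None of 10 pluripotency genes exceeded 1.02 counts in either library.

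**Figure D4:**
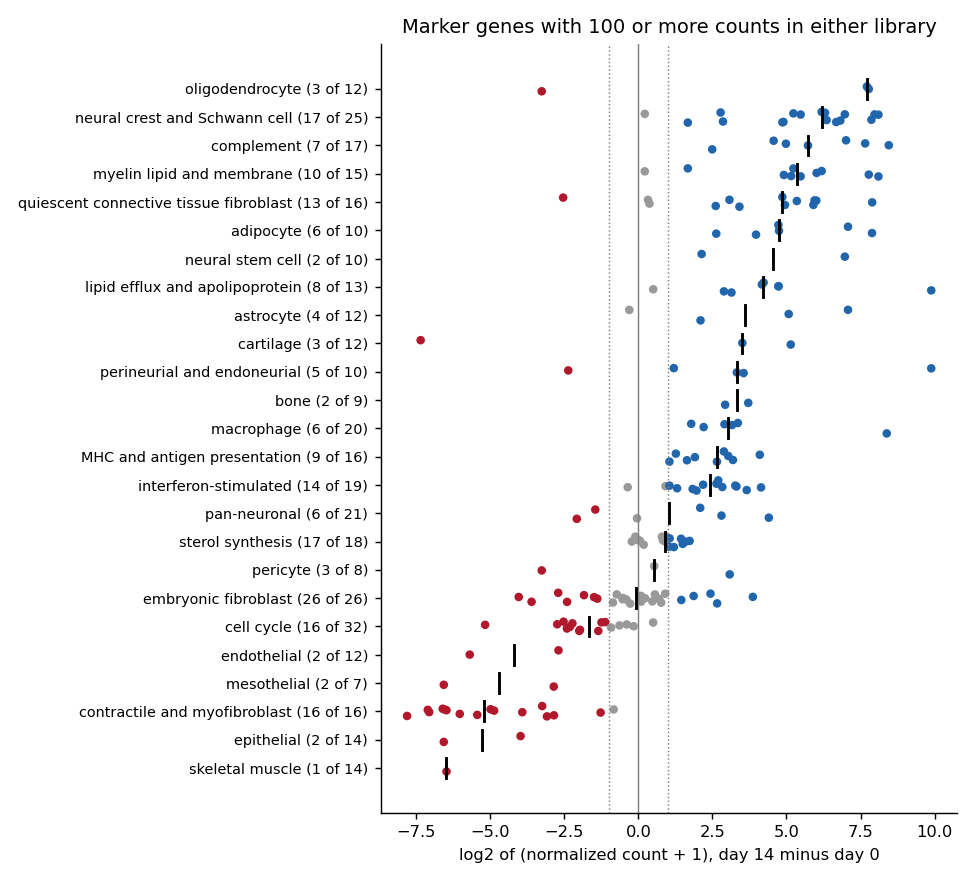
The log2 change of each list member with 100 or more counts in either library (x axis), 1 row per list, with the number of such members of all members in brackets. Blue points are gained, red lost and grey neither, black bars are medians, and dotted lines mark 2-fold. The contractile list (median -5.21) and the neural crest and Schwann cell list (median 6.19) lie on opposite sides. Lists with 1 to 3 points rest on those genes alone.

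The 15 gained genes whose intervals lay farthest from equal levels included Sox10 and Cdh19 of the crest list and C3 and C4b of the complement list. Apod, the lipocalin apolipoprotein D of nerve and perineural fibroblasts (chr16:31296192-31314808, minus strand), had 13.9, 133, 632, 1249 and 14075 in order of day. It was higher in each later library, with the last step between days 10 and 14 the largest in counts, and it ended 1016-fold above day 0 (605 to 1859). Per kilobase it was the highest of all gained genes on day 14, with 13959 normalized counts per kilobase. Plxnb3, a receptor of semaphorins (chrX:73757090-73772514, plus strand), had no count on day 0 and 1032 on day 14, at least 348-fold higher. Entpd2, an ectonucleotidase of glia, had 6.37 and 1899.7, 298-fold higher (147 to 873), and shares exon positions with Npdc1 on the same strand. Matn2, a matrilin of peripheral nerve, had 32.7 and 5392, 165-fold higher (117 to 240.1), and overlaps an exon of 9430069I07Rik on the other strand.

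Several more of the 15 are membrane proteins. Chl1, a close homologue of L1cam, had 2.97, 29.0, 256, 1185 and 869 in order of day, and Slitrk6, a membrane protein with neurite-controlling activity, 0.990, 12.7, 69.1, 252 and 555. Chl1 had passed its highest library by day 14 and Slitrk6 had not. Gfra2, a co-receptor for neurturin, had none on day 0 and 344 on day 14, at least 116-fold higher. B3galt2, a galactosyltransferase that overlaps Cdc73 on the other strand, was at least 117-fold higher, and Col6a5, a chain of collagen VI, at least 153-fold. Steap4, a metalloreductase, was highest on day 10 with 1240.4 and had 792 on day 14. In all, 40 gained genes had no count on day 0.

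Complement and class I antigen presentation genes were gained. Of 17 complement genes 7 had enough counts. All 7 were gained (19.7% of all genes were) and were highest of the 5 libraries on day 14. C3, the central component, had 1.98, 16.3, 144, 881 and 1044 in order of day. It rested on 2 reads on day 0, a ratio of 527 (146 to 4361). C4b had 3.02 and 810.0, 268-fold higher (93.0 to 1325), C1s1, a serine protease of the first component, 5.03 and 777, 154-fold (67.0 to 485), and Serping1, its inhibitor, 33.6 and 821, 24.4-fold (17.3 to 35.4). C4b has the near-identical copy C4a, and reads could have been divided between them. All 9 of the 16 MHC and antigen presentation genes with enough counts were gained. H2-K1 and H2-D1, class I heavy chains, were 7.41-fold (6.74 to 8.18) and 6.30-fold higher (5.88 to 6.76), and B2m, their light chain, 2.41-fold (2.29 to 2.53). Psmb8, a subunit of the immunoproteasome, had 14.8 and 271, 18.2-fold higher (10.9 to 33.0). The class II genes H2-Aa, H2-Ab1 and H2-Eb1 had 4 counts or fewer on day 14.

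Interferon-stimulated genes were gained by less and were mostly highest earlier. Of 19 such genes 14 had enough counts and 12 were gained (19.7% of all genes were), with a list median of 2.41. Of the 14, 10 were highest on day 10. Ifit3, an antiviral tetratricopeptide protein, had 27.9, 216, 279, 531 and 363 in order of day, 13.0-fold higher on day 14 (8.93 to 20), and Ifit1 had 15.8, 156, 141, 245 and 162, 10.2-fold (6.12 to 18.3). Gbp3, a guanylate-binding protein, had 8.85 and 173, 19.5-fold higher (9.99 to 43.0), and Stat2, a subunit of the interferon-activated factor, 101 and 362, 3.59-fold (2.88 to 4.50). The exceptions were Isg15, 1.89-fold higher (1.57 to 2.29), and Bst2, 1.28-fold lower (1.14 to 1.44) on counts and with a log2 change of 1.2 after adjustment for length.

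The promoters of these genes share a known element. The interferon-stimulated response element is a pair of GAAA runs with any 2 bases between them, or of TTTC runs when read from the other strand. Searched on both strands, it stood in the 250 bases before the start of 10 of the 15 list members that have an entry in the RefSeq promoter table, against 2.98% of all promoters, 5.07% of those of gained genes and 2.70% of those of lost genes. Isg15 and Bst2, which were not gained, also carried it. The stretches that hold it, with the element in capitals, are given for 4 gained genes, at chr19:34640760-34640838 for Ifit1, chr19:34583348-34583441 for Ifit3, chr3:142559974-142560039 for Gbp3 and chr3:142620579-142620638 for Gbp2, all on the plus strand of GRCm38.p6. In Gbp3 overlapping matches make 1 run of capitals.
Ifit1: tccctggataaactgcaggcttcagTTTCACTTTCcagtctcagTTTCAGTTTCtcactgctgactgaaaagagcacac
Ifit3: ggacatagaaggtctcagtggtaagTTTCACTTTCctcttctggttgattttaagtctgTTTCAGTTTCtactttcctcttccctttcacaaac
Gbp3: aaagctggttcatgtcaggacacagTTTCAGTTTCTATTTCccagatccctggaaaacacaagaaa
Gbp2: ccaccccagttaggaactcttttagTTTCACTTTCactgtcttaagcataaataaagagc
A match describes the letters of these promoters and not the binding of a factor.

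Fat cell genes appeared late. Of 10 adipocyte genes 6 had enough counts. All 6 were gained (19.7% of all genes were) and were highest on day 14, with a median log2 change of 4.74. Adipoq, the fat hormone adiponectin, had no count on days 0 and 2, then 8.75, 88.1 and 236, at least 79.5-fold higher at the end. Plin1, which coats lipid droplets, followed the same course with 3.50, 91.4 and 134. Fabp4, a fatty acid carrier, was 27.3-fold higher (21.2 to 35.8), and Lpl, lipoprotein lipase, 26.8-fold (21.6 to 33.6). The regulators were lower in level, with Cebpa at 31.7 and 201 and Pparg under 100 counts, at 40 and 73 expected counts.

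Lipid transport genes were gained beside them. Of 13 genes of lipid efflux and apolipoproteins 8 had enough counts and 7 were gained. Apoe, the apolipoprotein that glia and macrophages secrete, had 464, 1742, 3387, 4160.2 and 8371 in order of day, 18.0-fold higher (16.4 to 19.8), and had 9108 normalized counts per kilobase, after Apod and Fth1 the highest level of the gained genes. B2m followed with 5635 per kilobase and Dbi, an acyl-CoA-binding protein, with 5504, whose counts were 830.3 and 2983, 3.59-fold higher (3.33 to 3.88). The cholesterol exporters Abca1 and Abcg1 were 19.8-fold (12.2 to 34.4) and 35.2-fold higher (11.8 to 173), the second on 3 reads on day 0, and both were higher on day 10 than on day 14. Of 18 genes of sterol synthesis 17 had enough counts and 7 were gained (19.7% of all genes were). None was gained by over 8-fold, and the median was 0.91. On TPM values, where the median of all genes was 0.75, 11 were gained (median 1.64). After adjustment for length 4 were gained (median 0.56). Hmgcs1, an early enzyme of the pathway, was 3.01-fold higher (2.63 to 3.45), and Fdps and Fdft1 were at 1.03-fold and 1.01-fold of day 0.

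Macrophage genes were higher on day 14 than on day 0 but had been higher in between. Of 20 macrophage genes 6 had enough counts. All 6 were gained (19.7% of all genes were), and none of them was highest on day 14. The summed level of all 20 was 6.23-fold above day 0 (5.58 to 6.99). Lyz2, lysozyme, had 108, 1177, 2738, 1407 and 974 in order of day, and Cd68, a lysosomal protein, 30.7, 271, 314, 124 and 108. Cd5l, a secreted macrophage protein, had none on day 0 and 333 on day 14, at least 112-fold higher. Expected counts of the defining receptor Csf1r were 42 and 68 at the ends of the course, and those of Adgre1, the F4/80 antigen, 3 and 40. Both bone genes with enough counts were gained, of which Spp1, osteopontin, which macrophages also secrete, went from 309 to 41767 on day 5 and back to 4055. Markers of other blood cells stayed at 6 counts or fewer in both libraries.

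Single markers of other cell types were lower on day 14, while most genes that define those types were barely counted on day 0. Kdr, the main VEGF receptor of endothelium, had 236 on day 0 and 3.58 on day 14, 65.9-fold lower (25.4 to 244), and was already at 3.62 on day 2, but Cdh5 and Pecam1, which define endothelium, had 1 count each on day 0. Krt19 and Krt7, keratins of simple epithelia and mesothelium, were 129.9-fold (44.1 to 633) and 16.6-fold lower (10.5 to 27.5), with Cdh1 and Epcam at 0 on day 0. Of the endothelial, epithelial and mesothelial lists 2 genes each had enough counts and were lost, with Krt19 on both of the last lists, so that these are 5 genes. At any depth 5 endothelial genes were over 2-fold lower and none higher, 6 epithelial genes lower and 3 higher, and 2 mesothelial genes lower and 3 higher. Msln, of mesothelium, was 7.35-fold lower (5.63 to 9.73). Col2a1, the cartilage collagen, went from 599.7 to 2.68, 224-fold lower (76.2 to 1088), where the other 2 cartilage genes with enough counts were gained, while Sox9 stayed at 61 and 73 expected counts. Coch, cochlin, went from 252 to a single read. Among markers of skeletal muscle only Acta1 had enough counts, and Myod1 had 1 count on day 0.

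Among the other most decreased genes, Slc16a3, the lactate exporter of glycolytic cells, had 509 on day 0 and 3.58 on day 14, 142-fold lower (55.3 to 525). Slc2a1, the lost gene of the nerve sheath list, was lower by less, 5.21-fold (4.08 to 6.73). Gprc5a, an orphan receptor, had 133 and none, at least 49.5-fold lower, and so had Rpgrip1, with 218 and none, at least 81.5-fold lower, whose exons overlap Supt16 on the other strand, and Gm10273, with 197 and none, at least 73.6-fold lower. Gm10273 was at 0 on day 2, at 57.5 on day 5 and at 0 again, and its counts and those of Rpgrip1 are fractional, so both are uncertain.

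Proliferation genes were lower at the end point, after a rise in between for several. Of 32 cell cycle genes 16 had enough counts, 11 were lost (22.4% of all genes were) and none gained. The median log2 change was -1.66, and the summed level of all 32 was 2.64-fold lower (2.48 to 2.82). On TPM values 6 were lost and 1 gained, with a median of -1.0, where that of all genes was 0.75. Mki67, the gene of the Ki-67 antigen, had 121, 309, 312, 340.0 and 25 in order of day, and Top2a, the topoisomerase of dividing cells, 193, 172, 374, 265 and 35.5. Rrm2, which makes deoxynucleotides, was 41.0-fold lower (20.5 to 95.8), and Pcna, the replication clamp, was at 109 and 154. Of all 1651 lost genes 1186 were lowest in the day 10 library and 369 in the day 14 library, whereas 711 of the 1450 gained genes were highest on day 14 and 593 on day 10.

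The most abundant genes per kilobase that were lost were short. S100a6, a small calcium-binding protein, had 52913 normalized counts per kilobase on day 0 and 4349.9 on day 14, and its counts were 12.2-fold lower (11.7 to 12.6). The next were Ftl1, the ferritin light chain, Rplp1, a ribosomal stalk protein, Gm10076, a noncoding gene, and Lgals1, galectin 1, with counts 5.51-fold, 6.55-fold, 7.14-fold and 5.08-fold lower. After adjustment for length these 5 log2 changes were -2.04, -1.28, -1.15, -1.27 and -1.17 in place of -3.60, -2.46, -2.71, -2.84 and -2.35. Fth1, the ferritin heavy chain, moved the other way, with 4243, 17222, 20453, 8159 and 9018 in order of day, 2.13-fold higher (2.05 to 2.20). Ftl1 and Rplp1 belong to families with many processed copies, among which reads could have been divided.

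The limits of the calls can be seen in the genes beside them. Cbx5 and Castor2 were just inside the gained genes with log2 changes of 1.0009 and 1.0003, and Mthfd1l and Slc39a14 just outside with 0.9991 and 0.9980. Casp9 was kept, as its 100 expected counts at the end point (43.69 at the start) just reached the minimum, and Zfp142 was left out with 99.73 and 31.25. Among genes with 10 to 100 counts, 1555 were over 2-fold higher and 908 over 2-fold lower.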

How the data were processed

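The authors deposited 1 table per library with RSEM expected counts, TPM and FPKM per gene. The submitters' processing notes name Bowtie, RSEM and the build mm10. Versions, annotation and filters are not given in the sources used here. Libraries were made from total RNA with a kit that does not mark strand. FPKM values deposited by the authors were not used.

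Expected counts were scaled with TMM factors over all 5 libraries (edgeR 4.0.16), on rounded counts. Log2 changes and calls used a pseudocount of 1, printed folds are ratios of normalized counts without it, and their exact Clopper-Pearson 95% intervals come from the rounded counts of both libraries. Without replicates no model was fitted and no p-value was computed. Length-adjusted values subtract from each gene's log2 change the median of its length group, of 20 groups. The calculation was checked on simulated data. Symbols and coordinates came from GENCODE M21, which matched 27247 of 27729 IDs, and promoters from RefSeq. Of 425 listed symbols 421 matched; of the rest 2 were older names of listed genes. The intervals cover counting error only, since each day has 1 library. The reads carry no molecular identifiers, so amplified copies of a molecule could not be told apart.

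Genes were named by rule: the 15 gained and 15 lost with intervals farthest from equal levels, the 5 of each with the highest level per kilobase, list members and genes beside the thresholds. Members and lists were chosen with earlier results of these data known. The gene families and promoter motifs were picked after their values were seen. Alternatives were DESeq2 1.42.0 size factors, other scalings, pseudocounts and count minimums, and TPM. Some genes are not reported here.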

Additional observations from a re-analysis of the deposited data

How the results depend on the processing

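No paired analysis was possible because each day has 1 library, and no replicate could be left out. Under DESeq2 size factors, TMM factors of the 2 libraries alone, upper-quartile factors, a pseudocount of 5, or without Gm42418 and Lars2, all 8 counts stayed within 1.5 times. On TPM values, genes gained and lost over 2-fold became 3028 and 553, genes lost over 8-fold 52, and fibroblast markers lost 4. After adjustment for length 1093 genes were lost. With 200 or more counts 889 genes, 1 pan-neuronal and 2 macrophage markers were gained, and with 50 or more 12 macrophage markers. Without a filter 4179 genes were gained and 3354 lost, 861 and 281 over 8-fold, and 7 pan-neuronal and 14 macrophage markers were gained. These filters act by the number of genes compared. TPM divides by a gene's length in both libraries, so it does not adjust the change between them for length. On TPM values the median of all genes was 0.75 in place of -0.06. Only the length-adjusted setting subtracts the median of the gene's length group. The cause of the length difference was not tested. No named gene called gained or lost changed sign. Of 208 genes, 194 kept their sign on TPM values and 198 after adjustment for length. Of the list medians, that of embryonic fibroblasts became 0.77 on TPM values and that of pericytes, 0.54 on 3 genes, became -0.11 after adjustment for length. Depth limits genes with few counts on day 0, whose ratios are wide.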

Other observations

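Gene families picked by symbol after their values were seen also differed between the libraries. Of 28 collagen chains with enough counts 16 were gained and 3 lost (19.7% and 22.4% of all genes were). The median log2 change was 2.42, and after adjustment for length it was 2.21, with 16 gained and 4 lost. Col18a1, a basement membrane collagen, had 267 on day 0 and 9138 on day 14, 34.2-fold higher (30.3 to 38.7), and Col28a1, a collagen of peripheral nerve, 2.97, 1058 on day 10 and 364 on day 14. The lost chains were Col2a1, Col8a1 and Col12a1, the last with 2623 and 633. Of 9 matrix metalloproteinases with enough counts 7 were gained and none lost. At any depth 13 of the 22 were over 2-fold higher and 3 lower. Mmp2, a gelatinase, had 955, 1795, 5769.9, 9067 and 14494 in order of day, 15.2-fold higher (14.2 to 16.2), while Mmp3, stromelysin 1, had 17.8, 3025, 6979, 2109 and 1870.0. Of 10 semaphorins with enough counts 7 were gained and none lost, and of 8 such plexins, their receptors, 6 were gained and none lost. At any depth 12 of 20 semaphorins were over 2-fold higher and 1 lower, and 6 of 9 plexins were higher and none lower. After adjustment for length 7 semaphorins and 4 plexins were gained, and the plexin median was 0.89 in place of 1.40. Besides Plxnb3 the gained plexins included Plxnd1, 10.4-fold higher (8.16 to 13.5), while Plxnb2 was 1.33-fold lower (1.23 to 1.44). All 4 Cadm adhesion genes were gained, the highest being Cadm4, which joins Schwann cells to axons, with 55.4 and 5333, 96.2-fold higher (74.0 to 128).

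Families of short genes were lower together on counts. Of 37 subunits of respiratory complex I 33 were lost (22.4% of all genes were) and none gained. The median log2 change was -1.60, where that of all genes was -0.06. On TPM values it was -0.72 with 10 lost, where the median of all genes was 0.75 and 553 of 7378 were lost. After adjustment for length it was -0.16 with 3 lost, where the median of all genes was 0 and 1093 were lost. Of 75 mitochondrial ribosomal proteins 62 were lost, with medians of -1.49, -0.64 and -0.45 on the same 3 scales, and 20 and 12 lost on the last pair of them. Of 40 proteasome subunits 25 were lost and 1, Psmb8, was gained, with medians of -1.10, -0.24 and -0.45, while on TPM values 3 were lost and after adjustment for length 2. The part of transcript length in these differences was not tested further.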
